A study of Mus musculus with 6 samples.

Results

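The genes described here encode the proteins that dock, prime and fuse synaptic vesicles. They were taken as every gene whose symbol starts with Syt, Syn, Stx, Stxbp, Vamp, Snap or Cplx followed by a digit. The rule found 58 genes, of which 50 had at least 1 Ensembl transcript in all 6 libraries, out of 25935 genes with such a transcript. The symbol rule also takes in genes that act outside synapses, a pseudogene (Stxbp3-ps) and the endocytic adaptor gene Snap91.

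Retinas of wild type C57BL/6 mice, labelled as week 5 after birth, were profiled by mRNA sequencing. The strain is spelled as in the labels, and the methods name it C57BL/6J. Every mouse had received an intravitreal injection of NMDA, a glutamate receptor agonist that damages inner retinal neurons. There were 3 libraries from mice that then received recombinant stem cell factor, injected 2 days after NMDA (NMDA + SCF), and 3 from controls (NMDA + PBS). The control injection was PBS, which the labels do not state and the methods do. Both groups were taken 1 week after the second injection, and no library of an uninjured retina was used here.

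Vesicle fusion is driven by SNARE proteins: synaptobrevin (Vamp) on the vesicle pairs with syntaxin (Stx) and SNAP-25 on the plasma membrane. Munc18 proteins (some of the Stxbp genes) guide the assembly, and complexins (Cplx) clamp and promote it. Synaptotagmins (Syt) sense calcium, and synapsins (Syn) tether the reserve vesicles. Photoreceptors and bipolar cells release glutamate at ribbon synapses, which use syntaxin 3 and the complexins 3 and 4 and lack synapsins, whereas amacrine cells form conventional synapses with syntaxin 1 and the complexins 1 and 2.

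Values are FPKM, fragments scaled for transcript length and library depth, so levels of different genes are compared per length. The libraries had been quantified against different transcript lists, which bears on every value below. List A, with 54462 Ensembl transcripts, was used for NMDA + PBS replicate 1 and for all NMDA + SCF libraries. List B, with 55899, was used for NMDA + PBS replicates 2 and 3. For the 58 genes, both lists held 128 transcripts, list A alone another 20 and list B alone another 33, against 331 transcripts in the GENCODE M21 annotation. For 8 genes, Cplx4, Syt2 and Syt4 among them, no transcript was in both lists, so their groups could not be compared. Of the 50 genes with shared transcripts, 39 had a protein-coding one, and in 29 coding transcripts held more than 50% of the summed FPKM.

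The steps between low FPKM values gave an estimate of the fragments counted in each library, 3404332, 3977105 and 4440574 with PBS and 3426318, 3479957 and 3458475 with SCF, each in the order of replicates 1, 2 and 3, which is kept throughout. The 50 genes together held between 23749 and 25738 fragments in a library. Rod markers summed to between 3939 and 5126 FPKM in a library, with 10 of 10 genes above 0, as the retinal label states.

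Of the ribbon genes, Cplx4, on chromosome 18, was the most abundant in the libraries that listed it. Its coding transcript Cplx4-201 had 2408 FPKM in NMDA + PBS replicate 1 and 2203, 2176 and 2133 FPKM with SCF. All NMDA + SCF libraries lay below the only control library that lists the transcript, and with 1 control library there was no test. Cplx3, on chromosome 9 from 57599992 to 57606281, was read only through Cplx3-203, a coding transcript of 540 bases. It had 2.18, 0.931 and 0.834 FPKM with PBS and 0.540, 1.06 and 0 FPKM with SCF. The groups overlapped, no library had more than 4 fragments of it, and no fold is given.

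Stx3, the plasma membrane SNARE of ribbon terminals, lies on chromosome 19 from 11775118 to 11819403. Its shared transcripts are a nonsense-mediated decay form (Stx3-201) and a retained intron form (Stx3-204), neither of them coding. Their sum was 6.41, 8.35 and 11.5 FPKM with PBS and 6.93, 4.74 and 2.98 FPKM with SCF. NMDA + SCF replicate 1 lay above NMDA + PBS replicate 1, so the groups overlapped. The log2 fold change of FPKM + 1 was -0.75 ± 0.33 (SE), with an unadjusted p of 0.0584 and a Benjamini-Hochberg adjusted p of 0.536 in limma. It became -0.39 with the transcript list as a term (unadjusted p = 0.423), -0.15 with all listed transcripts and -0.50 without NMDA + SCF replicate 3. In the other direction, it became -0.86 with upper quartile scaling (unadjusted p = 0.0353), -0.81 with median-of-ratios scaling (0.0446), -0.76 with limma voom (0.0408), -0.93 without NMDA + PBS replicate 1 (0.0455) and -0.99 without NMDA + SCF replicate 1 (0.0305). For Stx3-201 alone, the values were 3.73, 4.92 and 4.99 FPKM with PBS and 2.95, 2.997 and 2.54 FPKM with SCF, without overlap.

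The more abundant Stx3 transcripts were each in 1 list. The coding Stx3-202, in list B only, stood at 91.5 FPKM in NMDA + PBS replicate 2 and 67.6 in replicate 3. The retained intron form Stx3-205, in list A only, had 80.0 FPKM in NMDA + PBS replicate 1 and 69.9, 79.4 and 73.4 FPKM with SCF. The shared sum therefore held a small share of the FPKM assigned to Stx3 in each library.

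**Figure D1:**
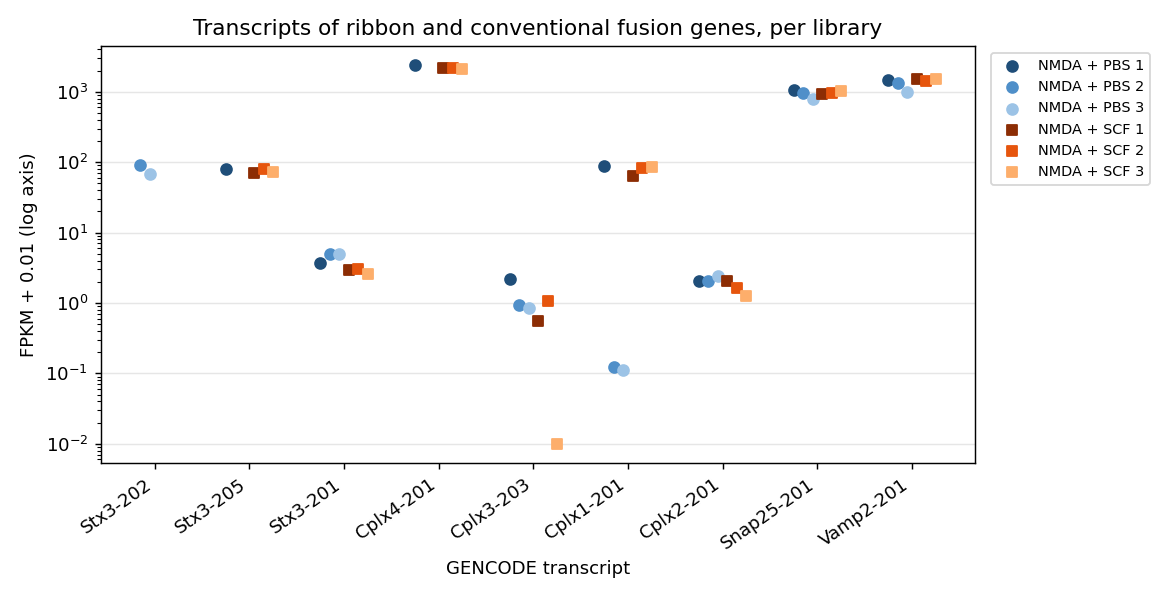
FPKM + 0.01 on a log axis for single transcripts of ribbon and conventional fusion genes, with circles for NMDA + PBS and squares for NMDA + SCF libraries; a missing point is a transcript that the library's list does not hold. Cplx1-201 lies at 0.115 FPKM in NMDA + PBS replicate 2, at 0.103 in replicate 3 and between 63.6 and 88.8 FPKM in the other libraries.

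Among the conventional paralogs, Cplx1 differed most between libraries. It lies on chromosome 5 from 108518554 to 108550024 and was read through its coding transcript Cplx1-201. It had 88.8, 0.115 and 0.103 FPKM with PBS and 63.6, 83.0 and 85.5 FPKM with SCF. The low libraries were those of list B, with 1 fragment each, and NMDA + PBS replicate 1 lay above every NMDA + SCF library. The log2 fold change was 4.02 ± 1.58 (SE; limma, unadjusted p = 0.0371, adjusted p = 0.536), but -0.21 against NMDA + PBS replicate 1 alone and 6.13 without that library. Condition and transcript list cannot be told apart in the last comparison.

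Cplx2, on chromosome 13, had 2.03, 2.04 and 2.42 FPKM with PBS and 2.07, 1.63 and 1.23 FPKM with SCF. The groups overlapped, and the log2 fold change was -0.27 ± 0.30 (SE), or -0.15 without NMDA + SCF replicate 3 and -0.44 with limma voom. Stx1a, on chromosome 5, was read only through noncoding transcripts, with 1.04, 1.14 and 0.770 FPKM with PBS and 2.83, 1.33 and 1.46 FPKM with SCF. Every NMDA + SCF library lay above every NMDA + PBS library in FPKM, but on 3, 7 and 5 fragments with PBS against 9, 5 and 4 with SCF, at 0.50 ± 0.33 (SE) on the log2 scale (limma, adjusted p = 0.636). This value became 0.28 without NMDA + SCF replicate 1, the highest library, and 0.81 with a pseudocount of 0.1.

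As log2 ratios of FPKM + 1, Stx3 over Stx1a was 1.86, 2.13 and 2.82 with PBS and 1.05, 1.30 and 0.69 with SCF. The groups did not overlap, and NMDA + SCF minus NMDA + PBS was -1.25. Both genes were read here through noncoding transcripts. Cplx3 over the sum of Cplx1 and Cplx2 was -4.85, -0.71 and -0.94 with PBS and -5.44, -5.37 and -6.45 with SCF, a difference of -3.59 that followed the fragments of Cplx1. With every listed transcript, the complexin difference changed sign, to 3.75 with Cplx4 added to Cplx3, because list B does not hold the Cplx4 transcript. No test was run on these ratios.

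The SNARE genes Vamp2 and Snap25 were the most abundant members with shared transcripts. Vamp2, which encodes the main neuronal synaptobrevin and lies on chromosome 11, had 1539, 1426 and 1056 FPKM with PBS and 1630, 1476 and 1587 FPKM with SCF. The groups overlapped, NMDA + PBS replicate 3 was the lowest library, and the log2 fold change was 0.24 ± 0.26 (SE). Without that library it became 0.0769, and with the transcript list as a term 0.0221. Snap25, on chromosome 2 from 136713453 to 136782428, had 1093, 989.0 and 845.4 FPKM with PBS and 965.3, 972.5 and 1028 FPKM with SCF. NMDA + PBS libraries were both the highest and the lowest, with a log2 fold change of 0.03 ± 0.22 (SE). The direction turned in 5 alternatives, with -0.10 under upper quartile scaling, -0.0517 under median-of-ratios scaling, -0.14 with the transcript list as a term, -0.0730 without NMDA + PBS replicate 3 and -0.0023 without NMDA + SCF replicate 3. In bulk tissue, fewer cells of a type and less RNA per cell cannot be told apart.

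Snap25 has a pair of coding transcripts in both lists, which differ in their coding sequence by the use of alternative exons in position 5. Snap25-201 had 1073, 954.5 and 801.5 FPKM with PBS and 943.8, 962.3 and 1017 FPKM with SCF. Snap25-202 had 18.8, 32.2 and 38.9 FPKM with PBS and 20.1, 9.64 and 11.4 FPKM with SCF. Of their summed FPKM, Snap25-202 made up 1.73%, 3.27% and 4.62% with PBS and 2.09%, 0.991% and 1.11% with SCF. The groups overlapped through NMDA + PBS replicate 1 and NMDA + SCF replicate 1, and this share was not tested.

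The alternative exons are shown because these bases tell the forms apart. Each is 118 bases long on the plus strand of GRCm38, and they differ at 31 positions, shown in capitals. The exon of Snap25-201 lies at chr2:136770057-136770174 and that of Snap25-202 at chr2:136769743-136769860.
Snap25-201: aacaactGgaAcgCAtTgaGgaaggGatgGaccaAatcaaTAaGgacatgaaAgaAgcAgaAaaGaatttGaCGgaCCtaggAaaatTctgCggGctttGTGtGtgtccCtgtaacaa
Snap25-202: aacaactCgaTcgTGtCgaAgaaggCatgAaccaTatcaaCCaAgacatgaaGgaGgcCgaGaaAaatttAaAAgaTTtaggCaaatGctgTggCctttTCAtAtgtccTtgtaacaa

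Vamp1, a synaptobrevin paralog on chromosome 6, had between 9.12 and 11.5 FPKM in NMDA + PBS and between 9.39 and 15.7 FPKM in NMDA + SCF libraries, and its groups overlapped. Vamp7, which acts in late endosomal and lysosomal fusion, lay between 33.8 and 36.3 FPKM, with overlapping groups. Vamp4, a SNARE of the trans-Golgi network, had 1.37, 1.0 and 2.39 FPKM with PBS and 0.409, 0.604 and 0.626 FPKM with SCF. All NMDA + SCF libraries lay below all NMDA + PBS libraries, on 2, 3 and 2 fragments against 5, 4 and 8, at -0.71 ± 0.31 (SE) on the log2 scale (limma, adjusted p = 0.536). With its coding shared transcripts only, the value became -0.24, and with a pseudocount of 0.1 it became -1.32.

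The most abundant syntaxins with shared transcripts were the endosomal Stx12, between 107.3 and 129.5 FPKM, and Stx6, between 41.7 and 54.0 FPKM, both with overlapping groups. Stx19, a syntaxin that lacks a transmembrane domain, had 1.67, 3.40 and 4.81 FPKM with PBS and 0.519, 0.920 and 0.514 FPKM with SCF. Every NMDA + SCF library was lower, on 5 to 9 fragments against 16 to 60, and the log2 fold change was -1.32 ± 0.38 (SE). It had the smallest p among the members (limma, unadjusted p = 0.0101, adjusted p = 0.536), but against NMDA + PBS replicate 1 alone the log2 fold change was -0.70, and with the transcript list as a term the unadjusted p was 0.112. The value was -2.10 with a pseudocount of 0.1 and -2.22 with limma voom. Snap29, a widely expressed SNAP-25 relative, had 26.2, 26.7 and 20.8 FPKM with PBS and 33.4, 29.0 and 30.9 FPKM with SCF. Its groups did not overlap, at 0.33 ± 0.18 (SE) on the log2 scale, or 0.22 without NMDA + PBS replicate 3.

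Of the Munc18 genes, Stxbp2, which serves secretion in blood and epithelial cells, had 11.6, 21.9 and 9.64 FPKM with PBS and 22.0, 21.1 and 30.2 FPKM with SCF. The groups overlapped through NMDA + PBS replicate 2, and the log2 fold change was 0.79 ± 0.32 (SE; limma, unadjusted p = 0.0411, adjusted p = 0.536). The value was 0.99 with the transcript list as a term (unadjusted p = 0.0949). The replicate block leaves the fold as it is, with an unadjusted p of 0.0739. It was 0.67 with upper quartile scaling (0.0518), 0.53 with coding transcripts only (0.0549) and 0.57 with limma voom (0.0643). With 1 library left out it ran from 0.56 to 1.11, and the unadjusted p was below 0.05 only without NMDA + PBS replicate 2. Stxbp3, a widely expressed Munc18, lay between 30.6 and 35.7 FPKM, with overlapping groups.

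Among the synaptotagmins, Syt13, which lacks calcium-binding residues, was the most abundant with shared transcripts. It had 86.3, 70.0 and 51.6 FPKM with PBS and 90.9, 89.0 and 86.6 FPKM with SCF. The groups did not overlap, but NMDA + PBS replicate 1 lay just below the lowest NMDA + SCF library, and the log2 fold change of 0.38 ± 0.21 (SE) became 0.04 against that library alone, 0.56 when it was left out (unadjusted p = 0.0180) and 0.19 without NMDA + PBS replicate 3. Syt10 lay between 4.50 and 13.8 FPKM, with overlapping groups. The fast calcium sensors could hardly be compared between the groups. Syt1 had shared noncoding transcripts only, with 17 fragments in NMDA + PBS replicate 3 and at most 1 in the other libraries. The coding transcripts of Syt2 that were in list A only had at most 1 fragment in a library. Another Syt2 transcript, in list B only, had 5.18 FPKM in NMDA + PBS replicate 2 and 10.7 FPKM in replicate 3.

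The synapsins were low in the transcripts that both lists held. Syn2 lay between 4.75 and 6.41 FPKM and Syn3, read mostly through noncoding transcripts, between 1.32 and 5.05 FPKM, both with overlapping groups. The log2 fold change was 0.14 ± 0.22 (SE) for Syn2 and 0.09 ± 0.47 (SE) for Syn3. Over the alternatives Syn2 ran from -0.0012 to 0.22, with 0.0668 without NMDA + PBS replicate 2, and Syn3 from -0.31 to 0.91, with the highest value when the transcript list is a term and 0.48 with all listed transcripts. Syn1, on the X chromosome, had 6 and 7 fragments in NMDA + PBS replicates 2 and 3 and at most 1 in the other libraries, so no fold is given.

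**Figure D2:**
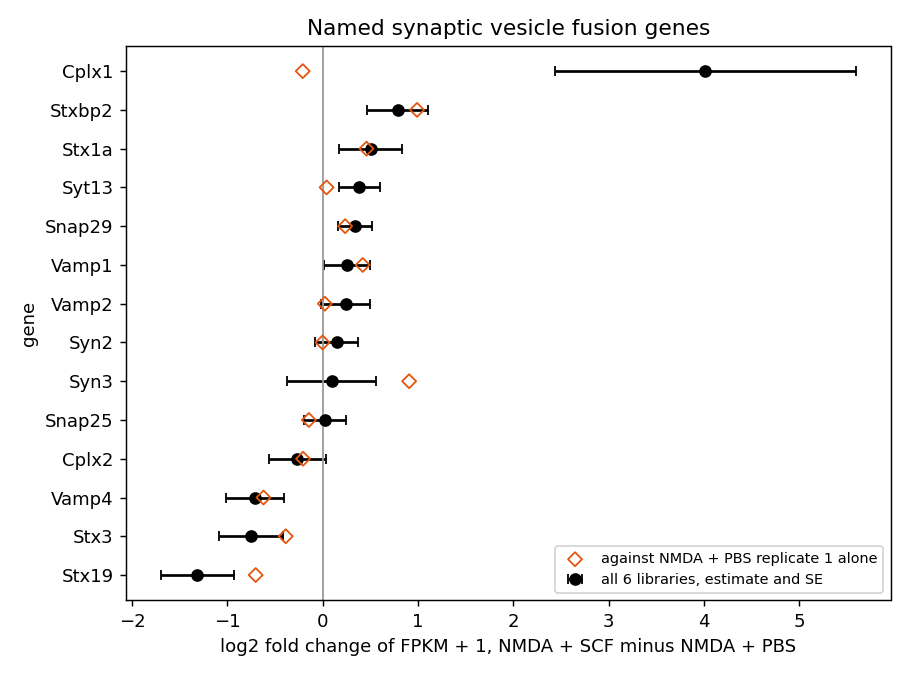
Log2 fold change of FPKM + 1, NMDA + SCF minus NMDA + PBS, for 14 genes with more than 3 fragments in each group, taken from the ribbon genes, their conventional paralogs and partners, and the members with the smallest p, without those named only for their abundance; points and bars give the limma estimate and its SE over 6 libraries, open diamonds the difference from NMDA + PBS replicate 1 alone. Cplx1 moves from 4.02 to -0.21 when the control is replicate 1 alone.

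With limma, 0 of the 50 members and 0 of 25202 genes tested (0% called) passed both thresholds, a 2-fold difference with an adjusted p of 0.001, and 0 of either passed an adjusted p of 0.05. On recovered fragments, limma voom called 0 members at the first threshold. At an unadjusted p of 0.05 there were 3 members, Cplx1, Stxbp2 and Stx19, which is 6% of the members beside 9.22% of all genes tested; 4.33% of all genes were higher and 4.9% lower at this p. The groups did not overlap for 6 members (12%, beside 14.1% of all genes), with 4 higher in NMDA + SCF, among them Snap29, Stx1a and Syt13, and 2 lower, Stx19 and Vamp4, while 7.63% of all genes were higher and 6.45% lower. Neither total exceeds its background, and the shares by direction lie near or below theirs. Without NMDA + PBS replicate 1, 1 member, Cplx1, passed both thresholds (2%, beside 0.218% of all genes) and 6 had an unadjusted p of at most 0.05 (12%, beside 17.5% of all genes), with condition and transcript list then inseparable. The median log2 fold change was 0.09 over the members and -0.01 over all genes tested. With a mean FPKM of at least 1 it was 0.11 over 38 members and 0.07 over 14013 genes, so the medians lay closer. The median over the members ran from 0.0033 with upper quartile scaling to 0.14 with a pseudocount of 0.1, and was 0.0349 without NMDA + PBS replicate 1, 0.0311 without NMDA + SCF replicate 3 and 0.0434 with the transcript list as a term, beside 0.0585 over all genes in the last. An exact permutation test of 3 libraries against 3 cannot give a p below 0.1, and since the labels do not say that the libraries came from separate animals, the p-values measure only the spread between these libraries.

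Of 74 other genes of exocytosis and the vesicle cycle, 62 were measured, with 5 higher and 5 lower at an unadjusted p of 0.05 and 0 at an adjusted p of 0.05 in limma. At the unadjusted p these are 16.1% of the list, 8.06% in each direction, beside the 9.22% of all genes given above, 4.33% higher and 4.9% lower, and the share was not tested. Their median log2 fold change was -0.07. Unc119, a photoreceptor synapse and trafficking gene, had 97.0, 92.3 and 59.2 FPKM with PBS and 140.7, 156.0 and 163.9 FPKM with SCF. All NMDA + SCF libraries were higher (limma, unadjusted p = 0.00454, adjusted p = 0.536). Rab3a, a vesicle GTPase, had 9.08, 7.61 and 6.44 FPKM with PBS and 12.7, 12.3 and 13.9 FPKM with SCF, again without overlap (limma, unadjusted p = 0.0117, adjusted p = 0.536). Napg, which encodes a SNAP protein that helps take SNARE complexes apart, had 16.6, 17.0 and 31.3 FPKM with PBS and 10.9, 8.15 and 11.4 FPKM with SCF, lower in all (limma, unadjusted p = 0.0114, adjusted p = 0.536). Unc119, Rab3a and Napg were named because their p was the smallest in the list. The groups did not overlap for 14.1% of all genes tested, and no such share is given for this list.

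The most abundant genes of each sublist spanned a wide range of levels. The SNARE-recycling ATPase gene Nsf lay between 282.1 and 335.0 FPKM and Napa between 18.6 and 107.0 FPKM, both with overlapping groups. The vesicle protein gene Syp had 497.6, 581.4 and 673.6 FPKM with PBS and 443.7, 403.3 and 489.5 FPKM with SCF, lower in all (limma, unadjusted p = 0.106, adjusted p = 0.567). Sv2a had 281.7, 260.7 and 215.4 FPKM with PBS and 313.1, 305.7 and 303.5 FPKM with SCF, higher in all (limma, unadjusted p = 0.150, adjusted p = 0.614). Of the priming and tethering genes, Rab3c lay between 21.7 and 36.1 FPKM and Cadps between 12.9 and 36.5 FPKM. The calcium channel subunit gene Cacna2d4, of the ribbon sublist, lay between 79.5 and 170.7 FPKM. The groups of these 3 genes overlapped.

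Other measures moved with the groups or the lists. Retained intron transcripts held 5.84%, 9.89% and 9.92% of the shared FPKM with PBS and 8.51%, 7.89% and 7.84% with SCF. Bipolar cell markers, with 9 of 12 genes measured, Prkca the most abundant and Grm6, Isl1 and Gng13 at 0 or without a shared transcript, summed to 288.1, 273.2 and 307.2 FPKM with PBS and 312.0, 316.8 and 334.2 FPKM with SCF. Lens markers, with 11 of 12 measured, Crygs the most abundant and Bfsp1 at 0 or without a shared transcript, summed to 26.6, 344.7 and 332.8 FPKM with PBS and 5484, 669.9 and 11909 FPKM with SCF. Both marker sums were higher in every NMDA + SCF library. Of the bipolar markers, only Cabp5 did so by itself, with 134.0, 121.2 and 109.4 FPKM with PBS and 139.8, 141.4 and 150.2 FPKM with SCF. The groups overlapped for the others, and Prkca was highest in NMDA + PBS replicate 3, at 157.2 FPKM. Amacrine cell markers, with 10 of 11 measured, Slc32a1 the most abundant and Th at 0 or without a shared transcript, summed to 304.6, 211.7 and 209.8 FPKM with PBS and 304.1, 259.7 and 283.5 FPKM with SCF, lower in both list B libraries than in any other. Slc32a1 and Calb2 did so by themselves, Chat and Tfap2b were highest in list B, and the other measured genes did neither. Pigment epithelium markers, with 7 of 8 measured, Ttr the most abundant and Tyrp1 at 0 or without a shared transcript, summed to 947.7, 507.9 and 224.7 FPKM with PBS and 804.8, 1020 and 1044 FPKM with SCF, also lowest in list B. Of these genes, only Ttr did so by itself. The sums of horizontal cell (6 of 7 measured), endothelial (5 of 6) and erythroid markers (3 of 5) were likewise lowest in the list B libraries. They stood at 66.1 and 64.5, 96.4 and 66.8, and 38.6 and 26.4 FPKM against at least 71.4, 118.2 and 47.5 FPKM in the others. By themselves, Calb1, Cldn5, Esam, Hbb-bs and Hbb-bt did so, while Onecut1, Tfap2b and Kdr were highest in list B. Cone markers (6 of 8 measured) summed highest there, at 97.6 and 89.6 against at most 75.0 FPKM, as did Opn1sw, Gnat2 and Pde6h singly. The other measured genes of these lists did neither. The part of these sums in the member values was not tested.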

How the data were processed

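The authors deposited FPKM per transcript for each of the 6 libraries, and a table of library totals of which the clean read number was used; 6 other columns of that table were not used. The aligner and counter are not given in the sources used here. The labels name mm9, but 98.2% of the Ensembl transcripts found in GENCODE M21 have its GRCm38 positions, which are the coordinates given.

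For each gene, the FPKM of those among the 46933 Ensembl transcripts shared by the lists were added up and compared as log2(FPKM + 1) with limma 3.58.1 in R 4.3.3 (variance trend, condition only, Benjamini-Hochberg over the 25202 genes above 0 in at least 1 library). The fit was checked on simulated data. Fragments were recovered as FPKM times length over the value of 1 fragment; between 98.4% and 98.5% of values came out within 0.05 of a whole number, or within the rounding of the FPKM value. Fold changes are on the log2(FPKM + 1) scale, which understates those of low genes. None is given where a group held at most 3 fragments in sum over the shared transcripts. This floor was not applied again in each alternative.

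Values of 2 members, and the syntaxin ratio from all listed transcripts, are not reported here; counts over all members include them. The members and lists were chosen with earlier results of these data known. Named were the ribbon genes, their conventional paralogs and fusion partners, the 2 most abundant members of each of 7 families, the 5 higher and 5 lower members with the smallest p, and, of other exocytosis genes, the 2 most abundant of each sublist and the 3 with the smallest p. Alternatives were a pseudocount of 0.1, a mean FPKM of at least 1, other scalings, a replicate block, the transcript list as a term, other transcript sets, limma voom and each library left out. Python 3.11.15 was used for tables and figures.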

Additional observations from a re-analysis of the deposited data

How the results depend on the processing

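There were 0 genes past the thresholds of 2-fold and adjusted p 0.001 in each alternative but those without NMDA + PBS replicate 1. With 1 library left out, the count ran from 0 to 55 over all genes and from 0 to 1 over the members, the highest without NMDA + PBS replicate 1, when the member was Cplx1. In an alternative chosen after seeing the data, which also dropped the genes then at 0 in the 5 remaining libraries, the counts were 191 and 1. All controls then have list B and all NMDA + SCF libraries list A, so list and condition cannot be told apart.

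The 3 members at an unadjusted p of 0.05 (6%, beside 9.22% of all genes) became 5 with median-of-ratios scaling (10%, beside 8.77%), 0 with the transcript list as a term (0%, beside 6.67%) and 6 with all listed transcripts (11.5% of 52 members, beside 10.2%). With 1 library left out they were 6 without NMDA + PBS replicate 1 (12%, beside 17.5%) and 1 each (2%) without NMDA + PBS replicate 3 and NMDA + SCF replicates 2 and 3 (beside 6.61%, 5.24% and 4.82%), and 6 in the alternative chosen after seeing the data (12%, beside 17.4%); the cause was not tested. With the list as a term the control is NMDA + PBS replicate 1, assumed to vary like the other libraries. The syntaxin ratio difference of -1.25 became -1.67 with a pseudocount of 0.1, and the complexin difference of -3.59 became 3.75 with all listed transcripts. The syntaxin ratio could not be formed from coding transcripts alone, since Stx3 and Stx1a have no shared one.

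Of 208 fold change values of 14 members, those named only for their abundance left out, under the alternatives, 197 kept their direction and 11, in 4 members, did not. The replicate block and the mean FPKM filter leave a fold change as it is, so those values could not turn. The same holds for other transcript sets in genes whose transcripts they do not change, such as Cplx1 and Stx19. Cplx1 became -0.21 with the list as a term. Snap25 became -0.10 with upper quartile scaling, -0.0517 with median-of-ratios scaling and -0.14 with the list as a term, and ran from -0.0730 to 0.11 with 1 library left out. Syn2 became -0.0012 with the list as a term. Syn3 ran from -0.31 to 0.43 with 1 library left out. With coding transcripts only Syn3 became -0.10, but on 2, 0 and 0 fragments with SCF, so no direction is read from it.

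With the replicate block, 0 genes and 0 members passed the thresholds. At an unadjusted p of 0.05 there were 2 members (4%, beside 7.36% of all genes). Over 14013 genes the correlations of the deviations of same-numbered libraries from their group means were -0.05, -0.05 and -0.08 for numbers 1, 2 and 3. Those of differently numbered libraries ran from 0.01 to 0.05. Deviations from the mean of 3 libraries depend on each other, so these values cannot settle whether same-numbered libraries were paired or shared a batch.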
